A study of Mus musculus with 3 samples.

Results

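Transcripts of 9 transcription factors that mark neurons of the striatum (Foxp1, Foxp2, Isl1, Ebf1, Sp9, Bcl11b, Meis2, Zfp503 and Six3) were followed across the cell classes of the mouse nucleus accumbens. The genes were taken by symbol, and all 9 were present among the 28001 features of the count table. Single cells came from 3 samples of a single group of Thy1::ChR2 mice, in which the Thy1 promoter drives the light-gated channel ChR2. All samples were labelled with FLiCRE while ChR2 was stimulated in the accumbens, from a coronal dissection of 400 um. FLiCRE is a tool that records neuronal activity: a reporter gene is switched on in cells whose calcium is high during illumination. The reporter is taken here to be the feature named mCherry. No unstimulated or unlabelled group is part of the series, so every comparison was made between cells of the same libraries, and effects of stimulation cannot be told apart from what all samples share.

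Spiny projection neurons, the main neurons of the striatum, arise from the lateral ganglionic eminence and divide into a class with the dopamine receptor Drd1 and the tachykinin gene Tac1 and a class with the adenosine receptor Adora2a and the enkephalin gene Penk. Bcl11b, Meis2, Foxp1 and Zfp503 are known for their part in building the striatum as a whole, while Isl1 and Ebf1 are known from the Drd1 lineage and Sp9 and Six3 from the lineage of the Adora2a class. Many of these factors stay on in adult neurons, where they can be read from the RNA of single cells.

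The factors belong to several families of DNA-binding proteins. Foxp1 (chr6:98925338-99522721, minus strand, GRCm38) and Foxp2 (chr6:14901349-15441977, plus strand) are forkhead repressors, and Isl1 (chr13:116298281-116309689, minus strand) is a LIM homeodomain protein. Ebf1 (chr11:44617317-45008091, plus strand) belongs to the early B cell factors, and Sp9 (chr2:73271925-73284706, plus strand) is an Sp family zinc finger protein. Bcl11b (chr12:107910403-108003602, minus strand), also called Ctip2, and Zfp503 (chr14:21983959-21989601, minus strand), also called Nolz1, are further zinc finger proteins. Meis2 (chr2:115863064-116065839, minus strand) and Six3 (chr17:85613608-85629302, plus strand) are homeodomain proteins. Gene spans are those of GENCODE M21.

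The RefSeq promoter windows (250 bases before to 50 after a start site, GRCm38.p6) held entries for 8 of the 9 genes, in 11 windows. Windows are shown for the 3 genes that differed most between the spiny classes and for Six3, whose fold change over Slc17a7 neurons was the highest of the 9. They lie at chr13:116309639-116309938 (minus strand, Isl1), chr11:44617850-44618149 (plus strand, the first of 2 Ebf1 windows), chr2:73271676-73271975 (plus strand, Sp9) and chr17:85620584-85620883 (plus strand, Six3). Capitals mark a GC box (GGGCGG or its reverse complement) in Sp9 and a MEIS motif (TGACAG) in Six3.
Isl1: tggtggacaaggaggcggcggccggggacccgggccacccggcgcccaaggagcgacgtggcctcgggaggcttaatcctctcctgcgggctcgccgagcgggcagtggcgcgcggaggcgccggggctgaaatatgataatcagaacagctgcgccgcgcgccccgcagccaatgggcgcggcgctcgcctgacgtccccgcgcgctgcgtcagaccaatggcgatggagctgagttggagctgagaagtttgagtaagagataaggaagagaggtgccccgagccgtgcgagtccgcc
Ebf1: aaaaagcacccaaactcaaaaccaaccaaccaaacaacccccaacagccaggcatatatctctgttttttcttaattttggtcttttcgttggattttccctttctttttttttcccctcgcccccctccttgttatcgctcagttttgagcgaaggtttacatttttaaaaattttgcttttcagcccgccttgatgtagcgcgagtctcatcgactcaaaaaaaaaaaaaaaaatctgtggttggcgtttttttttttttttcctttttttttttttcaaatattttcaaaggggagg
Sp9: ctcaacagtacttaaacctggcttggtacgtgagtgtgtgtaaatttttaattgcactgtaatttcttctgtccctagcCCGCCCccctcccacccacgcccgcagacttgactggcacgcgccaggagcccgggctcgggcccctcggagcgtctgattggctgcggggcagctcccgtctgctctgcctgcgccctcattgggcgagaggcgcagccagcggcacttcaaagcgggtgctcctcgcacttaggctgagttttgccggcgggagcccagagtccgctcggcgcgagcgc
Six3: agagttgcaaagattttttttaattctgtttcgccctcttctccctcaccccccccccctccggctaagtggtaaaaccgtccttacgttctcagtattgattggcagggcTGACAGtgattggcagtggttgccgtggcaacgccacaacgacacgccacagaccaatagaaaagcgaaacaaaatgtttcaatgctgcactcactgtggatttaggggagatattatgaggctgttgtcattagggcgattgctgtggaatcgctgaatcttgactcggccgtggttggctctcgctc
Both strands were searched for letters that proteins of these families are known to bind. Of all 32851 windows of this length, 3.65% held the forkhead motif TGTTTAC, 5.29% the homeodomain motif TAATTA, 0.904% the EBF palindrome, 35.7% the GC box and 19.2% the MEIS motif. The Isl1 window and the Ebf1 windows held none of these letters. Among the 11 windows, 3 held a GC box, 2 the MEIS motif, 1 the homeodomain motif and 0 the forkhead or EBF motif. A match is a description of the letters and not of binding.

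The libraries, told apart by the barcode suffix, held 2717, 6627 and 2281 deposited cells, of which 2306, 5783 and 1834 were kept (2789355, 14578665 and 6276639 UMIs, molecular tags that count an RNA once). The library number is only a name and is not tied to a labelled replicate. Nothing says that libraries came from separate animals, so p-values refer to these libraries only. They rest on a spread estimated partly from all genes tested, and not on the libraries of a gene alone. Libraries shared 11, 6 and 15 barcodes among kept cells (1 with 2, 1 with 3, 2 with 3). Cells with at least 3 UMIs of neuron genes and more of these than of non-neuronal genes were gated by UMIs of 6 receptor and peptide genes, none of them a member. The Drd1/Tac1 class held 208, 1169 and 184 cells of libraries 1 to 3, the Adora2a/Penk class 295, 972 and 278, the Slc17a7 class (a vesicular glutamate transporter, cortical-type excitatory neurons) 63, 135 and 78, and the Sst class (somatostatin interneurons) 8, 30 and 9. Non-neuronal cells numbered 1238, 1925 and 845. Neurons with UMIs of both spiny gates (mixed) numbered 23, 509 and 127. Median depth was 1156, 2515 and 2744.5 UMIs in Drd1/Tac1 neurons and 1089, 2625.5 and 2329 in Adora2a/Penk neurons.

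The gates were checked against other markers. Pdyn, the dynorphin gene, stood at 468, 534 and 586 CPM (UMIs of the gene scaled to a fixed total of UMIs per sum) in Drd1/Tac1 neurons of libraries 1 to 3 and at 5.93, 55.7 and 35.4 CPM in Adora2a/Penk neurons. Gpr6, an orphan receptor of the Adora2a class, stood at 193, 175 and 243 CPM there and at no more than 19.7 CPM in Drd1/Tac1 neurons. Drd2, the receptor that gives the Adora2a class its usual name, was nearly absent from the table (2.96, 2.91 and 1.22 CPM in Adora2a/Penk neurons), and Chrm4, a muscarinic receptor of the Drd1 class, was at 0 in Drd1/Tac1 neurons of all 3 libraries. The classes are therefore called by their gate genes. Npy, the usual partner of Sst, ranged from 14432 to 27047 CPM in the Sst class, and the Slc17a7 class held Neurod6 at 257, 11.1 and 95.4 CPM.

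Of the genes known from spiny neurons in general, Foxp1, Meis2 and Bcl11b were read in most spiny cells. Foxp1 stood at 996, 611 and 1170.3 CPM in Drd1/Tac1 neurons of libraries 1 to 3 (64.4%, 71.9% and 88.6% of cells with a UMI) and at 1538, 766 and 1368 CPM in Adora2a/Penk neurons (79.3%, 78.6% and 83.5%). Library 2 was the lowest of the 3 in both classes and the classes overlapped, although the Adora2a/Penk sum was the higher one within each library. Foxp1 fell by 0.38 on the log2 scale in Drd1/Tac1 over Adora2a/Penk neurons (SE 0.0720, edgeR adjusted p 6.38e-05, lower in 3 of 3 libraries), a 1.30-fold difference. Without library 1 the call was lost (adjusted p 0.0699, edgeR).

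Meis2 showed the same order at 937, 637 and 1251 CPM in Drd1/Tac1 neurons and 1046, 878 and 1357 CPM in Adora2a/Penk neurons. The classes again overlapped, with library 3 highest in both. Its difference was -0.28 on the log2 scale (SE 0.0728, edgeR adjusted p 0.00921), and the call was lost without library 1, 2 or 3 (edgeR adjusted p 0.129, 0.852 and 0.0973) and with DESeq2 (0.778). Bcl11b stood at 905, 725 and 884 CPM in Drd1/Tac1 neurons and 1025, 771 and 910.2 CPM in Adora2a/Penk neurons, a log2 fold change of -0.11 ± 0.0730 SE (adjusted p 0.758 in edgeR) that did not pass the test. Zfp503, read in fewer cells, stood at 43.3, 45.4 and 68.6 CPM against 41.5, 44 and 45.2 CPM (log2 fold change 0.18 ± 0.170 SE, adjusted p 0.881 in edgeR). Within a library, Bcl11b was lower in Drd1/Tac1 neurons in 3 of 3 libraries and Zfp503 higher in 3 of 3, by differences that did not pass the test.

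**Figure D1:**
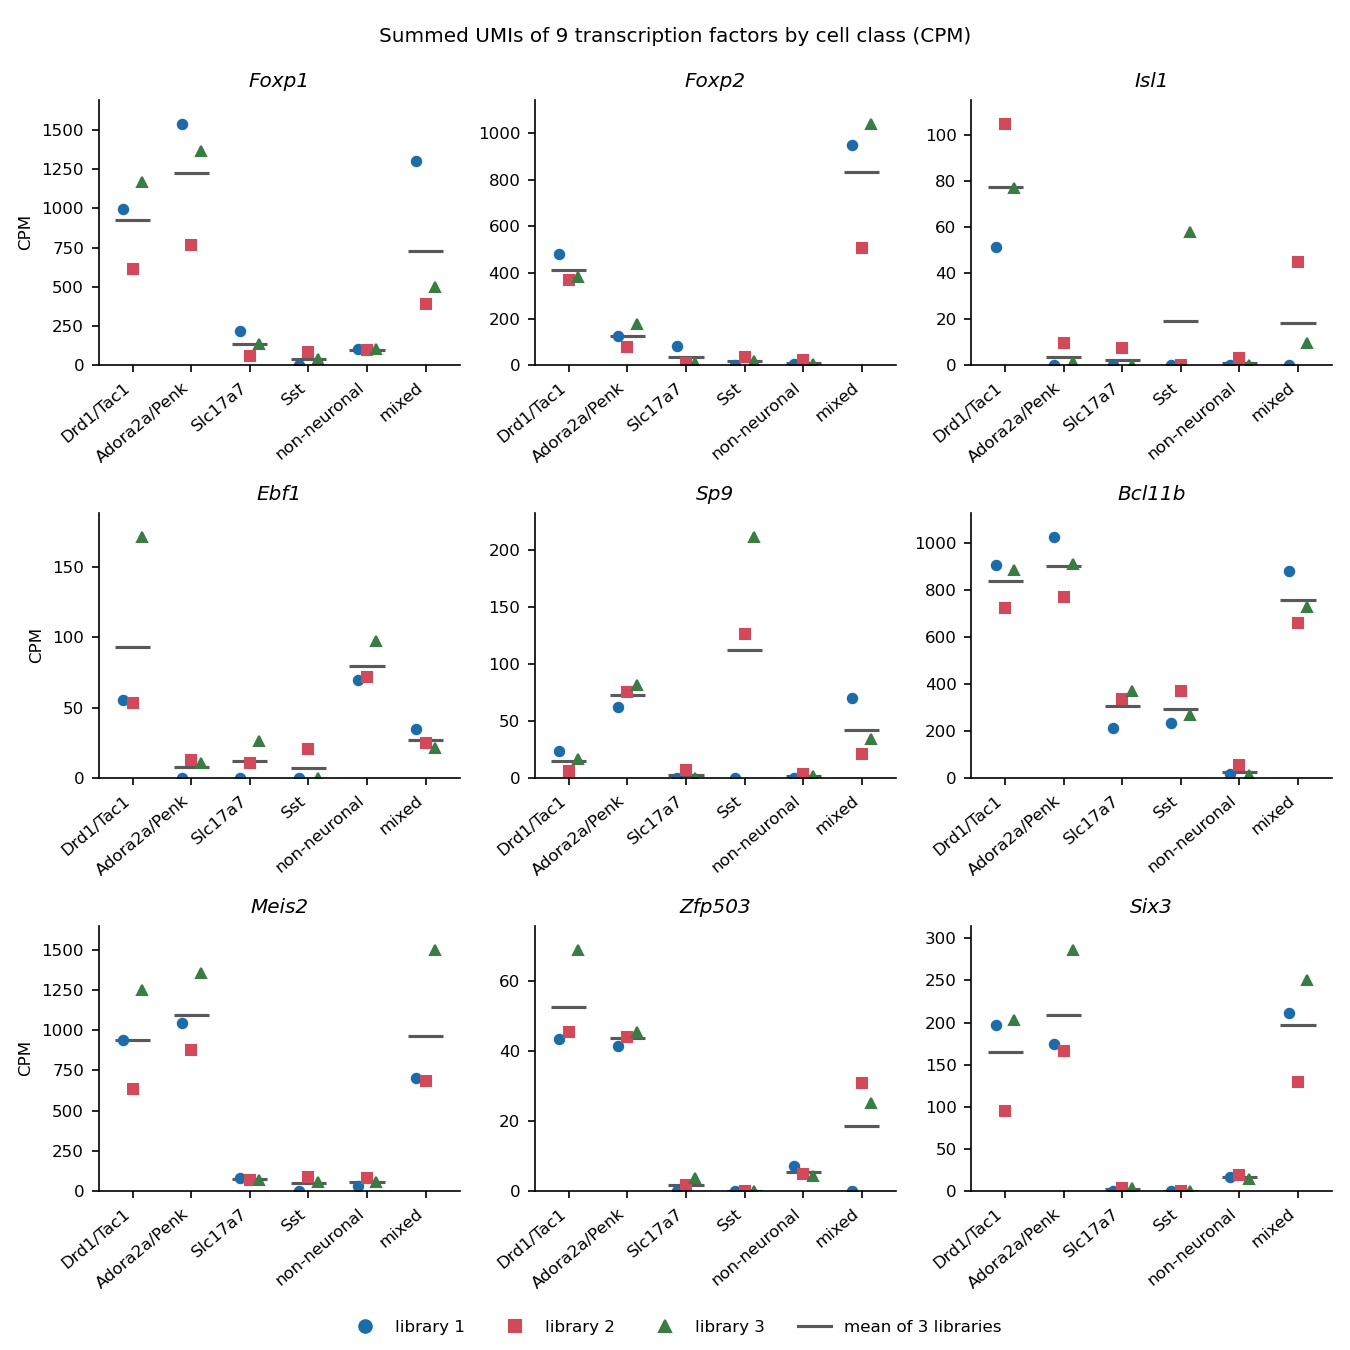
Level of each of the 9 genes in CPM (linear axis from 0, 1 panel a gene) for 5 gated classes and the mixed neurons. Points are the sums of libraries 1 to 3 and lines their means. Isl1 and Ebf1 sit above their Adora2a/Penk level in Drd1/Tac1 neurons of every library, Sp9 the other way round, and Foxp2 is highest in the mixed neurons.

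Isl1 and Ebf1 were higher in the Drd1/Tac1 than in the Adora2a/Penk class. Isl1 stood at 51.2, 105 and 77.0 CPM in Drd1/Tac1 neurons and at 0, 9.46 and 1.22 CPM in Adora2a/Penk neurons, where 0 UMIs in library 1 allow up to 8.89 CPM. It was read in 6.25% (95% exact binomial interval 3.37% to 10.5%), 24.3% (21.9% to 26.9%) and 17.9% (12.7% to 24.3%) of Drd1/Tac1 cells, intervals that cover counting error only. The corresponding shares in Adora2a/Penk neurons were 0% of 295 cells (which allows up to 1.02%), 2.26% and 0.360%, and in non-neuronal cells, at median depths of 1023, 1704 and 3147 UMIs, 0%, 0.675% and 0%. The classes did not overlap. In library 2 the Adora2a/Penk share was above the non-neuronal one, and Tac1 also stood at 188 CPM in Adora2a/Penk neurons and at 180.2 CPM in non-neuronal cells. Tac1 is a gate gene whose level the gate caps in Adora2a/Penk neurons, so these 2 levels are no measure of free RNA in that class. The part of free RNA in these Isl1 counts was not tested. Isl1 rose by 3.76 on the log2 scale in Drd1/Tac1 over Adora2a/Penk neurons (SE 0.234, edgeR adjusted p 5.41e-28, higher in 3 of 3 libraries), a 13.6-fold difference. The fitted value without library 2, 5.95, stands against Adora2a/Penk sums of 0 and 1.22 CPM and is no bound.

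Ebf1 stood at 55.1, 53.4 and 171 CPM in Drd1/Tac1 neurons, read in 5.77%, 10.3% and 26.1% of cells. In Adora2a/Penk neurons it stood at 0, 12.7 and 11.0 CPM, with 0 of 295, 25 of 972 and 4 of 278 cells holding a UMI. Library 3 was high among the Drd1/Tac1 sums, and no Adora2a/Penk sum reached the lowest of them. Ebf1 rose by 2.77 (SE 0.255, edgeR adjusted p 2.22e-09), a 6.80-fold difference, with values of 4.08 without library 2 and 2.22 without library 3. DESeq2 gave 3.62 and an adjusted p of 0.0509, which misses the threshold of 0.05.

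Foxp2 followed the same direction without passing. It stood at 480.1, 367 and 380.1 CPM in Drd1/Tac1 neurons (37.0%, 53.6% and 47.8% of cells) and at 124, 77.5 and 176 CPM in Adora2a/Penk neurons (11.9%, 13.8% and 21.9%). The classes did not overlap, yet Foxp2 remained readable in the Adora2a/Penk class, above the non-neuronal shares of 0.404%, 4.36% and 1.18%. Its log2 fold change was 1.81 (SE 0.268), higher in 3 of 3 libraries, and the edgeR adjusted p was 0.0896. In the 12 alternatives run the adjusted p was between 1.07e-111 and 0.0316 (edgeR or DESeq2) and the log2 fold change between 1.37 and 2.75.

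Sp9 and Six3 were higher in the Adora2a/Penk class. Sp9 stood at 23.6, 6.14 and 16.7 CPM in Drd1/Tac1 neurons, from 6, 20 and 10 UMIs, and at 62.2, 75.3 and 81.9 CPM in Adora2a/Penk neurons. It was read in 1.44%, 1.45% and 2.72% of Drd1/Tac1 cells, in each library above the 0%, 0.779% and 0.592% of non-neuronal cells, and in 6.78%, 18.4% and 19.8% of Adora2a/Penk cells. The classes did not overlap. Sp9 fell by 3.04 on the log2 scale in Drd1/Tac1 over Adora2a/Penk neurons (SE 0.227, edgeR adjusted p 8.17e-22, lower in 3 of 3 libraries), an 8.23-fold difference, and by 2.02 without library 2. Cir1, which overlaps Sp9 on the opposite strand, stood at 63.0, 55.0 and 75.3 CPM in Drd1/Tac1 and 94.8, 56.4 and 86.7 CPM in Adora2a/Penk neurons. Whether the counting used strand is not given in the sources used here.

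Six3 stood at 197, 95.5 and 203 CPM in Drd1/Tac1 neurons (21.6%, 20.2% and 38.0% of cells) and at 175, 166 and 286 CPM in Adora2a/Penk neurons (16.9%, 33.3% and 50.7%). The classes overlapped, and Six3 was lower in Drd1/Tac1 neurons in 2 of 3 libraries, the exception being library 1. Six3 fell by 0.57 on the log2 scale (SE 0.110, edgeR adjusted p 0.0001). The call was lost without library 2 (adjusted p 0.683), without library 3 (0.180) and with DESeq2.

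Between the spiny classes, 6 of the 9 factors passed the test (2 higher and 4 lower in Drd1/Tac1 neurons), beside 2.75% of the 8428 genes tested (1.45% higher and 1.31% lower). Of the 9, 4 did not overlap between the classes over libraries (Isl1, Ebf1, Foxp2 and Sp9), beside 5.41% of all genes tested. The median log2 fold change was -0.11 over the 9 and 0.0024 over all genes.

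**Figure D2:**
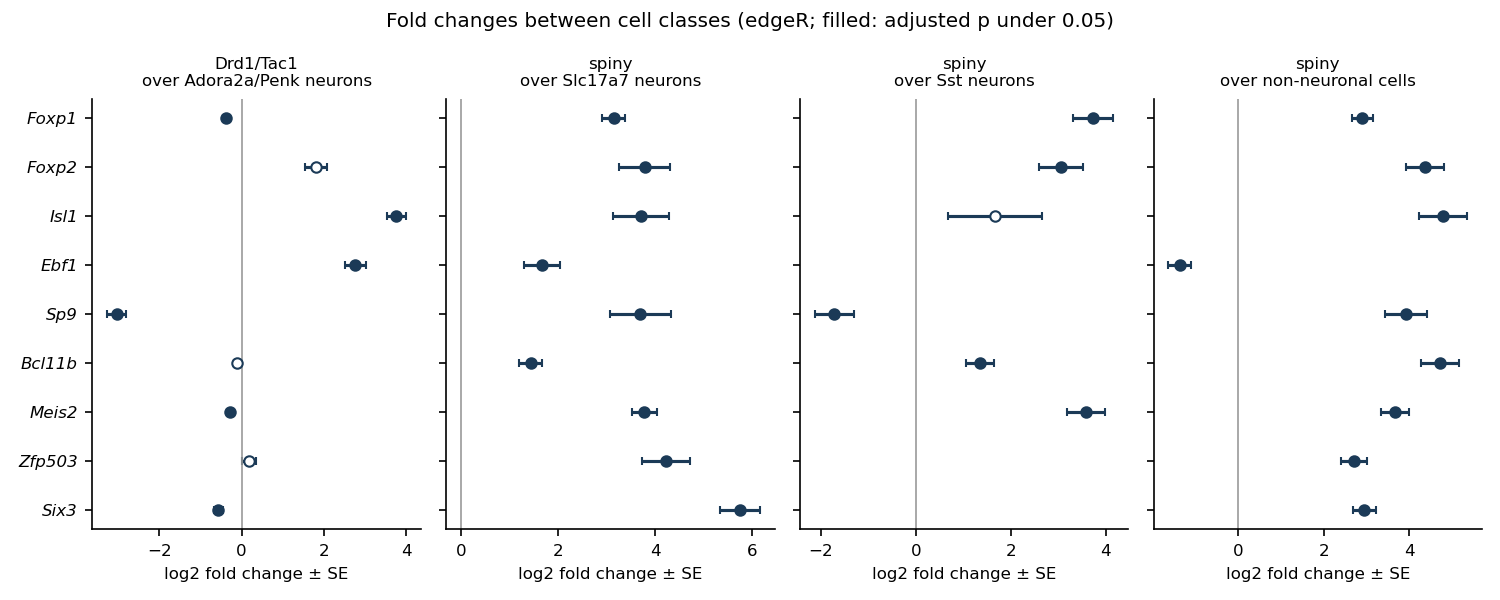
Log2 fold change ± SE of the 9 genes in 4 class comparisons (edgeR quasi-likelihood test over 3 libraries), with filled points for an adjusted p under 0.05. In the panel of Sst neurons Ebf1 was not tested and Zfp503 and Six3, at 0 in that class, are not drawn. The spiny factors Foxp1, Meis2 and Bcl11b lie near 0 in the first panel and right of 0 in the others.

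The gates were then narrowed to cells with both genes of a pair. In neurons with Drd1 and Tac1 UMIs, Foxp2 stood at 535, 396 and 356 CPM in libraries 1 to 3, against 103, 45.3 and 77.4 CPM in neurons with Adora2a and Penk. Neurons of the Adora2a/Penk class with Penk but no Adora2a UMI held more, 189, 186 and 515 CPM, in each library. Foxp1 took the opposite course, with 1573, 829 and 1600.4 CPM in neurons with Adora2a and Penk and 1444, 557 and 575 CPM in those with Penk alone; library 1 showed only a small difference. Median depth of these groups was 1090, 2887 and 2470.5 UMIs with both genes and 1094.5, 1936 and 1869 UMIs with Penk alone. The part of depth in the difference was not tested.

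Mixed neurons carried the highest Foxp2 level of the gated groups. Foxp2 stood there at 950.4, 507 and 1040.0 CPM, above the Drd1/Tac1 and Adora2a/Penk sums of every library, and was read in 47.8%, 62.7% and 81.1% of cells. Foxp1 in the same cells stood at 1302, 390.4 and 497 CPM, below both spiny classes in libraries 2 and 3 and between them in library 1. Isl1 (0, 45 and 9.63 CPM) and Sp9 (70.4, 21.6 and 34.7 CPM) were also read, and Tshz1, a homeodomain zinc finger gene, stood at 352, 257 and 612 CPM against 169, 106 and 142 CPM in Drd1/Tac1 neurons. Mixed neurons had median depths of 1217, 2569 and 3555 UMIs and may include pairs of cells caught in the same droplet, whose part in these levels was not tested. Glutamatergic markers summed to 35.2, 299.7 and 21.2 CPM in mixed neurons, against at most 14.2 CPM in either spiny class, and cholinergic markers to 0, 86.3 and 0 CPM, against at most 26.6 CPM. The part of such cells in the Foxp2 level was not tested.

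**Figure D3:**
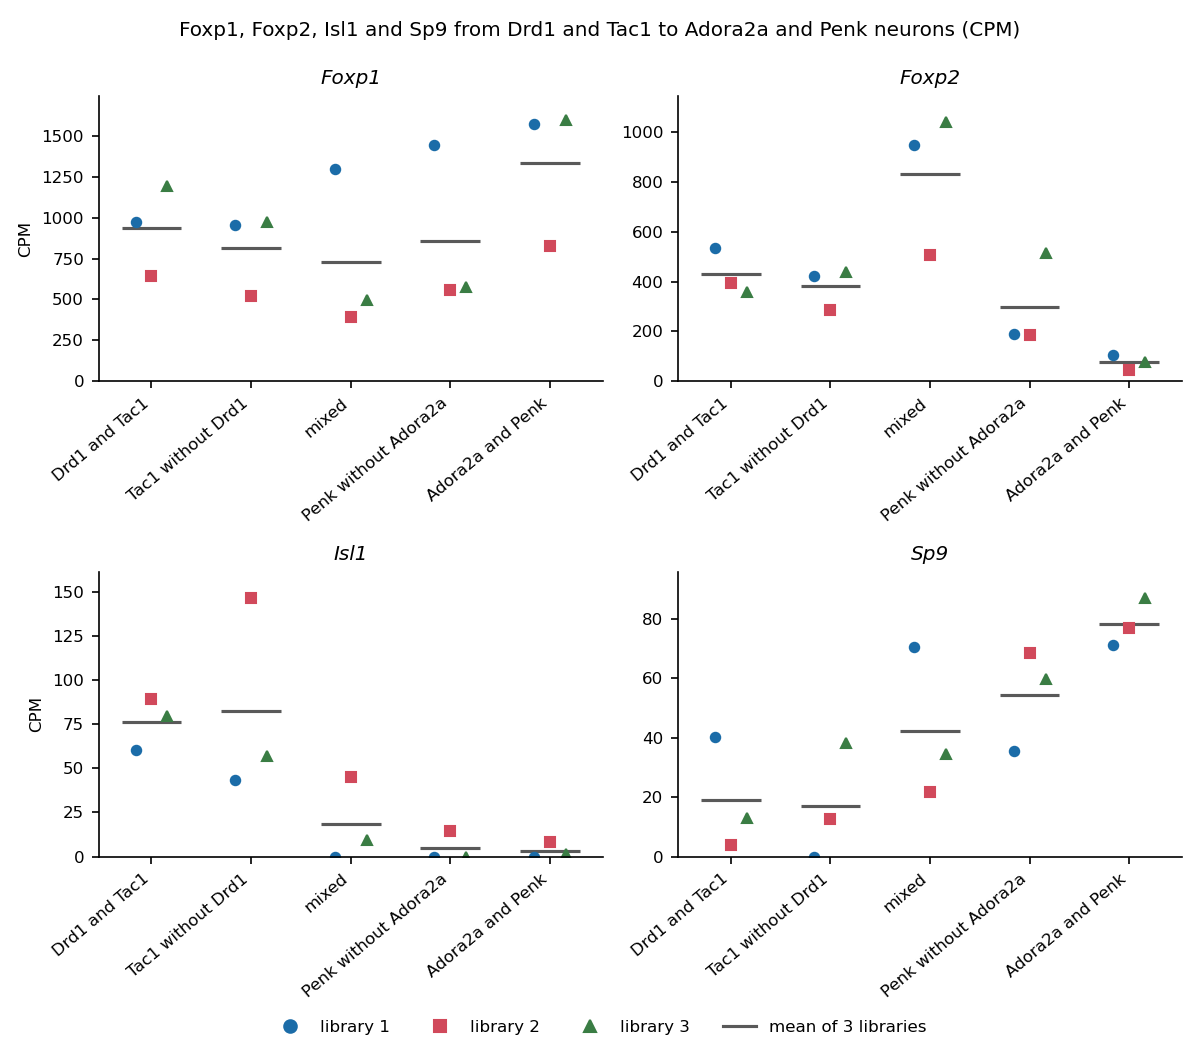
Foxp1, Foxp2, Isl1 and Sp9 in CPM (linear axes from 0) in neurons with both genes of a gate, with the peptide gene alone, and in mixed neurons. Points are libraries 1 to 3 and lines their means. Foxp2 peaks in mixed neurons and is lowest with Adora2a and Penk, and Sp9 has its highest mean there.

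Because cells differ in depth, each cell was also thinned to 1000 UMIs, which left out 145 of the Drd1/Tac1 and 197 of the Adora2a/Penk cells. Foxp1 was then read in 55.9% ± 9.89 of Drd1/Tac1 and 65.8% ± 11.5 of Adora2a/Penk cells (SD, n = 3 libraries), Meis2 in 58.3% ± 12.8 and 66.0% ± 5.85, and Bcl11b in 56.9% ± 5.23 and 56.5% ± 2.41. These shares lay within the spread of the libraries between the classes. Isl1 was read in 7.70% ± 3.59 against 0.435% ± 0.753, Ebf1 in 8.01% ± 4.96 against 0.856% ± 0.752, Foxp2 in 28.5% ± 3.51 against 9.86% ± 3.49 and Sp9 in 0.811% ± 0.861 against 7% ± 2.07. Without thinning the means were 16.2% and 0.874% for Isl1, 14.0% and 1.34% for Ebf1, 46.1% and 15.9% for Foxp2, and 1.87% and 15% for Sp9.

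The number of factors read in the same cell differed between the 2 spiny classes by less than the SD over libraries. At 1000 UMIs a Drd1/Tac1 cell held UMIs of 2.35 ± 0.375 of the 9 factors on average and an Adora2a/Penk cell of 2.29 ± 0.269 (SD, n = 3 libraries), and 5.68% ± 2.95 and 4.16% ± 3.01 of cells held none. In Slc17a7 neurons the mean was 0.539 ± 0.0797 and 52.0% ± 6.43 of cells held none, and in non-neuronal cells 0.247 ± 0.0853 and 78.8% ± 6.5. A cell that holds none at this depth may still express them.

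**Figure D4:**
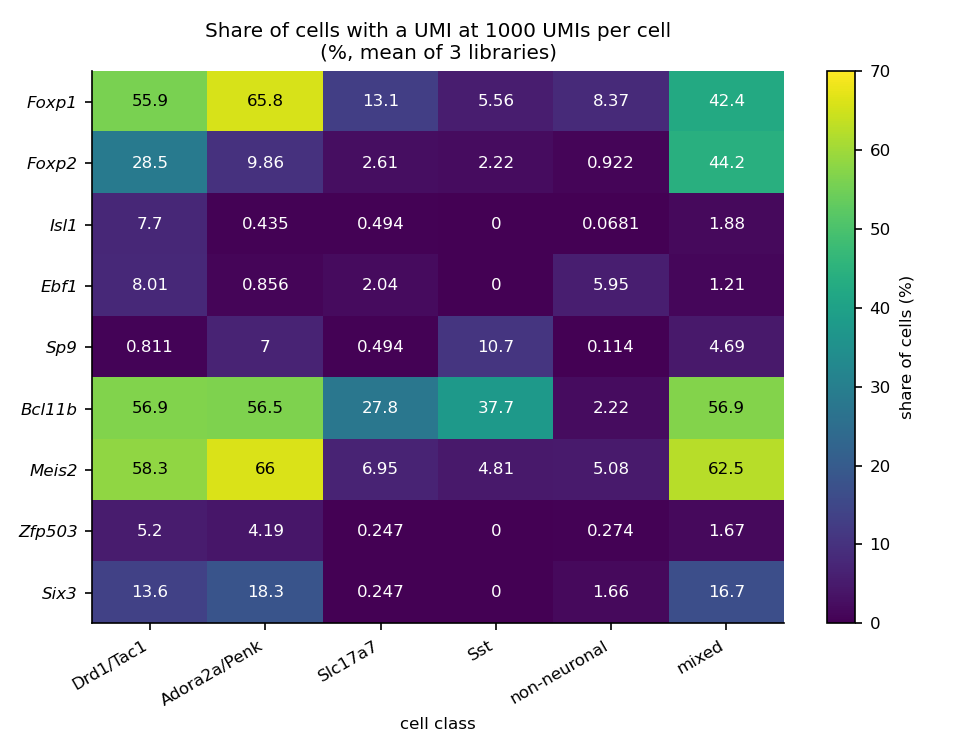
Share of cells with a UMI at 1000 UMIs per cell, as the mean of 3 libraries in percent, for 9 genes (rows) and 6 classes (columns). Colour runs from 0% to 70%. Foxp1, Bcl11b and Meis2 exceed 55% in both spiny classes, and Zfp503 and Six3 are at 0% in the 46 Sst cells left.

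Most factors were far lower in Slc17a7 neurons, with Bcl11b and Ebf1 closest to the level of the 2 spiny classes summed. Six3 stood at 0, 3.69 and 3.74 CPM there against 184, 128 and 251 CPM in the summed spiny classes (log2 fold change 5.74 ± 0.406 SE, adjusted p 8.47e-07 in edgeR), and Zfp503 at 0, 1.84 and 3.74 against 42.3, 44.8 and 55.1 CPM (4.22, SE 0.494). Meis2 stood at 82.9, 68.2 and 67.3 CPM (3.77, SE 0.251) and Foxp1 at 216, 57.2 and 133 CPM (3.15, SE 0.237), with no overlap with the spiny sums. Foxp2, at 82.9, 7.38 and 9.35 CPM, was high in library 1 only, and its log2 fold change of 3.78 (SE 0.531) became 4.84 without that library.

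Bcl11b, which cortical projection neurons of the deep layers are also known to express, was the exception among the abundant factors. It stood at 216, 336 and 372 CPM in Slc17a7 neurons (30.2%, 65.2% and 82.1% of cells), a log2 fold change of 1.43 for spiny neurons (SE 0.234, edgeR adjusted p 0.000989). The call was lost without library 3 (adjusted p 0.0692, edgeR). Ebf1 stood at 0, 11.1 and 26.2 CPM against 23.7, 34.8 and 78.4 CPM, overlapped, and gave 1.66 (SE 0.374, edgeR adjusted p 0.00728), a call lost without library 2 (adjusted p 0.108) and without library 3 (0.196). These spiny sums pool Drd1/Tac1 neurons (mean 93.1 CPM) with Adora2a/Penk neurons (mean 7.91 CPM), beside a mean of 12.4 CPM in Slc17a7 neurons. Drd1/Tac1 neurons alone were above Slc17a7 neurons in every library. The spiny sums of Isl1 and Sp9 likewise pool 2 classes that differ. Isl1 and Sp9 had UMIs in library 2 of the Slc17a7 class alone, 4 each. Their log2 fold changes were 3.70 (SE 0.578) and 3.69 (SE 0.623); without library 2 the fitted values, 7.37 and 8.13, stand against sums of 0 and are no bounds, and without library 3 Sp9 was not called (2.72, edgeR adjusted p 0.0917).

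In the comparison of spiny with Slc17a7 neurons all 9 factors passed the test, higher in spiny neurons, beside 16.2% of the 7876 genes tested in either direction with 7.1% in that direction and 9.14% in the other. The sums of 8 of the 9 did not overlap, beside 28.1% of genes. The median log2 fold change was 3.70 over the 9 and 0.019 over all genes. Adjusted p-values of the 9 ran from 8.47e-07 to 0.00728 (edgeR). The Six3, Zfp503, Isl1 and Sp9 sums averaged at most 2.48 CPM in Slc17a7 neurons. Such genes pass the filter on low counts only through their spiny sums and can be called only as higher there.

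Sst neurons were few, and an arm of at least 5 cells was used in place of 10 after their number was seen. Sp9 was the 1 factor higher there than in spiny neurons, at 0, 126 and 211 CPM (9 of 30 and 5 of 9 cells in libraries 2 and 3) against 45.6, 37.8 and 54.4 CPM, a log2 fold change of -1.72 for spiny neurons (SE 0.408, edgeR adjusted p 0.00922). The 0 of library 1 rests on 8 cells and allows up to 236 CPM, so the groups overlapped. Bcl11b was read in 37.5%, 80.0% and 66.7% of Sst cells (236, 371 and 269 CPM), 2.54-fold below spiny neurons (log2 fold change 1.35, SE 0.297).

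Foxp1 (0, 84.1 and 38.4 CPM), Meis2 (0, 91.1 and 57.7 CPM) and Foxp2 (0, 35.0 and 19.2 CPM) were low in Sst neurons, with log2 fold changes of 3.73, 3.57 and 3.05 for spiny neurons. Zfp503 and Six3 had 0 UMIs in all 47 Sst cells. Against a floor of 3 counts over the group (14.5 CPM) their pooled spiny levels of 46.4 and 154 CPM were at least 3.21-fold and at least 10.6-fold higher. Isl1 did not pass (1.67, SE 0.982, edgeR adjusted p 0.335): its 3 UMIs in Sst neurons came from a single cell of library 3. In all, 7 of 8 factors tested passed (6 higher and 1 lower), beside 12.3% of the 6438 genes tested (6.65% higher and 5.67% lower). The 6 include Zfp503 and Six3, which pass the filter on low counts only through their spiny sums and can be called only as higher there. Of all 9 factors, 7 did not overlap, the untested Ebf1 among them, beside 29.8% of the genes tested. The median log2 fold change was 3.31 over the 8 and 0.091 over all genes. With any 1 library left out, edgeR called 0 of them, with 7, 5 and 5 at an unadjusted p under 0.05 without library 1, 2 and 3; DESeq2 on all libraries called 5. The log2 fold changes with a library left out were 3.41 to 5.53 for Foxp1, 3.32 to 4.88 for Meis2, 2.93 to 4.23 for Foxp2, 1.25 to 1.98 for Bcl11b and -1.83 to -1.46 for Sp9. The highest value of the first 4 came without library 2.

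Outside neurons, Ebf1 went against the other 8. Non-neuronal cells held Ebf1 at 69.9, 71.7 and 97.4 CPM (5.98%, 9.40% and 13.7% of cells), above the summed spiny classes in every library, although the ranges overlapped. In the summed spiny classes Ebf1 fell by 1.36 on the log2 scale (SE 0.269, edgeR adjusted p 0.00169). These sums pool Drd1/Tac1 neurons (mean 93.1 CPM) with Adora2a/Penk neurons (mean 7.91 CPM). Drd1/Tac1 neurons alone were below non-neuronal cells in libraries 1 and 2 and above them in library 3. The non-neuronal group holds many cell types, with summed marker levels of 11827 to 21468 CPM for oligodendrocytes, 1846 to 3846 CPM for microglia and macrophages, 1125 to 1364 CPM for endothelial cells and 367 to 636 CPM for mural cells and fibroblasts. Which of them carried Ebf1 was not tested.

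The other 8 factors were higher in spiny neurons than in non-neuronal cells and did not overlap, with log2 fold changes from 2.71 (Zfp503) to 4.79 (Isl1). Foxp1 was the most even, at 101, 95.3 and 102 CPM in non-neuronal cells, and Six3 stood at 16.4, 18.9 and 14.7 CPM. Bcl11b (16.4, 54.7 and 12.7 CPM) and Foxp2 (3.04, 20.8 and 6.01 CPM) were highest in library 2, the library in which non-neuronal cells also held the most Penk (247 CPM, against 30.4 and 73.4 CPM). Without library 2 their log2 fold changes moved from 4.72 to 5.54 and from 4.38 to 5.32, and that of Sp9 from 3.93 to 5.08. Isl1 had UMIs in non-neuronal cells of library 2 alone, so its 4.79 rests on that library; the fitted value without it, 8.32, stands against sums of 0 and is no bound. All 9 passed the test, beside 64.1% of the 11955 genes tested, and 8 of 9 did not overlap, beside 69.3%. In the higher direction the count was 8 of 9, beside 29.7%, and in the lower direction 1 of 9, beside 34.5%. With most genes called, the count of 9 says little about these factors. The median log2 fold change was 3.67 over the 9 and -0.076 over all genes.

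Within the Drd1/Tac1 class, cells with and without a UMI of Tshz1, which marks a subset of Drd1 neurons, were compared (37, 262 and 58 cells with it). Foxp2 stood at 478, 503 and 454 CPM with Tshz1 and at 481, 327 and 340.2 CPM without. It was level in library 1 and higher in libraries 2 and 3 (log2 fold change 0.42, SE 0.130, unadjusted p 0.00403, edgeR adjusted p 0.999). None of the 8 factors tested passed in edgeR (1 at an unadjusted p under 0.05) or in DESeq2 (0 called), beside 0.0344% of the 5809 genes tested. With a gate on the receptor alone, Foxp2 passed (0.91, edgeR adjusted p 0.0144), and the other 7 did not. The remaining 7 log2 fold changes lay between -0.28 and 0.41.

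The last comparison asked how the factors stood in spiny neurons with a UMI of mCherry, within each spiny class and library (6 pairs of sums). Foxp2 was lower with mCherry in Drd1/Tac1 neurons of every library, at 354, 283 and 224 CPM against 491, 401 and 416 CPM. In Adora2a/Penk neurons it stood at 269, 47.0 and 81.5 CPM with mCherry and 118, 85.2 and 193 CPM without, so library 1, with 4 UMIs in 11 cells, went the other way. Over the 6 pairs Foxp2 fell by 0.62 on the log2 scale (SE 0.121, edgeR adjusted p 0.000817, lower in 5 of 6 pairs), a 1.54-fold difference. The 6 pairs come from 3 libraries, so the 2 pairs of a library are not independent, and the SE and p treat them as if they were. With each class fitted alone on 3 pairs, a setting added after the values were seen, Foxp2 was not called, at -0.56 (SE 0.130, edgeR adjusted p 0.711) in Drd1/Tac1 and -0.82 (SE 0.262, edgeR adjusted p 0.961) in Adora2a/Penk neurons.

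Sp9 pointed the same way without passing (log2 fold change -0.86, SE 0.257, edgeR adjusted p 0.120, lower in 5 of 6 pairs), from counts that reach 0 UMIs in mCherry-bearing Drd1/Tac1 neurons of libraries 1 and 3. Isl1 stood at 50.6, 123 and 84.2 CPM in Drd1/Tac1 neurons with mCherry and 51.3, 97.6 and 75.8 CPM without (log2 fold change over all pairs 0.34, SE 0.186, adjusted p 0.452, edgeR). Foxp1, Bcl11b, Meis2, Six3 and Zfp503 lay between -0.10 and 0.14. Of the 8 factors tested, 1 passed, in the lower direction, beside 0.215% of the 6516 genes tested (0.107% higher and 0.107% lower). Foxp2 did not overlap within the Drd1/Tac1 class, for which the share of all genes without overlap was not computed. Pooled over both classes, whose levels differ, the arms of all 9 factors (Ebf1 was not tested) overlapped, and those of 0.368% of the genes tested did not.

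Cells with mCherry were deeper, with median UMIs of 1809, 3395 and 3763 against 1136, 2324 and 2646 in the Drd1/Tac1 class and 1184, 3250 and 4805 against 1077, 2514 and 2260 in the Adora2a/Penk class. The call over 6 pairs was also lost without library 2 (edgeR adjusted p 0.582), with DESeq2 (0.695), with gates on both genes (0.181) or on the receptor alone (0.275, both edgeR), and when cells without mCherry were matched on UMIs (log2 fold change -0.45), a setting likewise added. The log2 fold change was -0.82 to -0.54 with a library left out. Over the 6 pairs Tshz1 also fell (-0.64, SE 0.145, edgeR adjusted p 0.00958).

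**Figure D5:**
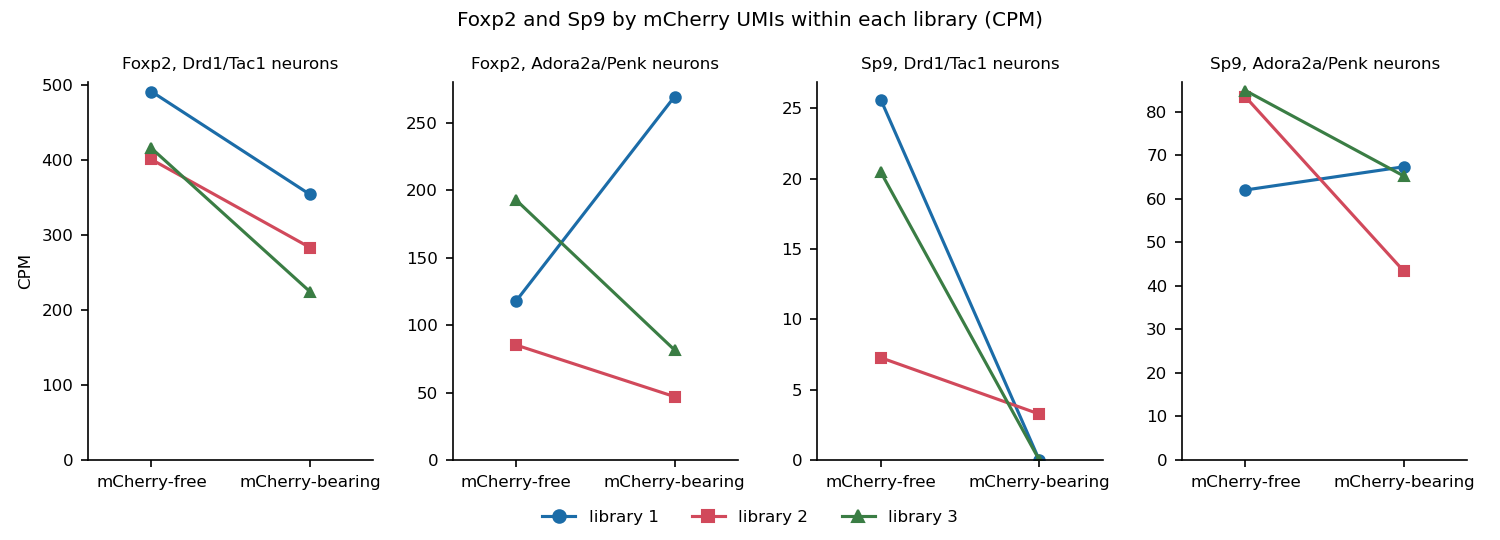
Foxp2 and Sp9 in CPM (linear axes from 0) in mCherry-free and mCherry-bearing neurons of each spiny class. Lines join the 2 sums of a library. Foxp2 is lower with mCherry in 5 of 6 pairs, and the Adora2a/Penk pair of library 1 rises from 118 to 269 CPM.

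Other genes of these neurons were taken from 4 lists. Of 27 factors of the striatal and ventral forebrain lineage, 20 were tested between the spiny classes and 8 passed, 4 in each direction, beside 2.75% of all genes. Tshz2, a zinc finger homeobox gene, rose in Drd1/Tac1 neurons (log2 fold change 2.07), while Zfhx3 (-1.08) and Zfhx4 (-0.86), zinc finger homeodomain genes, fell. Over Slc17a7 neurons 10 of 18 tested rose and 3 fell, beside 16.2% of all genes, led by Pou3f4 (5.10), Dlx6 (4.44), Zfhx3 (4.28) and Pbx3 (4.09).

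Of 16 factors of cortical projection neurons, 7 were tested over Slc17a7 neurons and 5 fell in spiny neurons, beside 9.14% of all genes in that direction. Among the 5 were Neurod2 (-6.5), Tbr1 (-6.31), Emx1 (-6.20) and Nr4a2 (-5.25). Between the spiny classes 3 of the 16 were tested. A listed gene that passes the filter on low counts through a single arm can be called only as higher in that arm. Of 12 interneuron factors, 3 were tested over Sst neurons and all 3 fell, namely Lhx6 (-8.08), Sox6 (-7.27) and Satb1 (-3.26). Of all genes 12.3% passed there, 5.67% in that direction. Between the spiny classes 1 of the 12 was tested, Satb1. Lhx6 and Sox6 thus passed the filter only through their Sst sums and could be called only as lower in spiny neurons. Of 16 effector genes of spiny neurons (Rxrg is also in the lineage list), 15 rose over Slc17a7 neurons and 14 over Sst neurons, beside 16.2% and 12.3% of all genes. Every call over Sst neurons, those of the interneuron list included, was lost with any 1 library left out. Between the spiny classes 6 of these 16 passed, with Gpr6 (-4.32) lower and Cnr1 (0.60) and Rxrg (0.40) higher in Drd1/Tac1 neurons.

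Genes with the most similar pattern were ranked by Pearson correlation of log2(CPM + 10) over 15 sums (5 classes in 3 libraries) among 7618 genes, as a description, since the sums share libraries, depth and cell composition. Meis2 was nearest to Foxp1 (0.967), followed by Rnf166 and Tle4 (0.957 and 0.952). Neto1, Rgs9 and Lypd1 were nearest to Foxp2 (0.922, 0.917 and 0.916), and Gng7, Alcam and Fam102b to Meis2 (0.972, 0.971 and 0.971). Zfp503 and Six3 were near each other (0.979) and shared Pbx3 and Pde7b. Cpne5, Ppp1r9a and Gnal were nearest to Bcl11b (0.989, 0.981 and 0.979). Patterns of the remaining factors were matched less closely: Isl1 by Pdyn, Slc35d3 and Reln (0.820, 0.815 and 0.739), Ebf1 by Tspan4, Larp7 and Cxcl14 (0.784, 0.776 and 0.774), and Sp9 by Grb10, Focad and Rab27b (0.885, 0.852 and 0.847).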

How the data were processed

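Single cells of the accumbens were profiled with the 10x 3′ v2 kit, per the labels. The authors deposited UMI counts of all 3 libraries in a single matrix, made with Cell Ranger 3.0 on mm10 per the submitters' processing notes (3.0.0 per the file headers). The annotation release, cell calling and any thinning of reads when libraries were pooled are not given in the sources used here, and a feature at a low count may reflect the annotation.

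Barcodes were kept from 300 genes upward, if mitochondrial UMIs made up no more than 20%. Scrublet (scanpy 1.11.5, expected rate 0.06) with its own threshold marked 64 cells, 0 of them in library 2, so the highest scores were removed at 0.8% per 1000 cells (44, 296 and 28 cells). A Drd1/Tac1 neuron had at least 2 UMIs of Drd1 and Tac1, at least 4 times as many as of Adora2a and Penk, 0 of Slc17a7 and under 5 of Sst, and an Adora2a/Penk neuron the reverse. Slc17a7 neurons had at least 2 Slc17a7 UMIs and at most 2 of either spiny pair, and Sst neurons at least 5 Sst UMIs. Counts were summed per library and class and tested across libraries with edgeR 4.0.16 (quasi-likelihood, TMM, low-count filter, library as block, Benjamini-Hochberg over all genes, 0.05). Arms needed 10 cells, or 5 for Sst. DESeq2 1.42.0, other gates, filters and depths, and leaving out each library were alternatives. CPM divides by all UMIs of the summed cells. Scripts were tested on simulated data with R 4.3.3. Levels of different genes are not compared, since 3′ UMI counts depend on the transcript end.

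All 9 genes are named in every comparison, with the 3 most similar genes (mean of at least 20 CPM) and up to 4 listed genes per list that passed, by size; some of these are not reported here. The members and lists were chosen with earlier results of these data known.

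The libraries are blocks because both arms of each comparison come from the same library.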

Additional observations from a re-analysis of the deposited data

How the results depend on the processing

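Of 658 alternative log2 fold changes, 567 had the same sign and call, 13 gained a call, 52 lost one and 26 changed direction. Of 90 alternative shares, 66 moved by less than the SD and 24 by more. Causes were not tested. With no replicate block, the number of factors called was 3 between the spiny classes (Isl1, Foxp2 and Sp9; 6 with the block), 8 over Slc17a7 (9), 7 over Sst, 9 over non-neuronal cells, 0 for Tshz1 and 0 for mCherry (1). The pairing is by library, from which both arms come. Leaving out each library gave 5 to 5, 6 to 9, 0 to 0, 9 to 9, 0 to 0 and 0 to 1 factors in the same order. The mCherry count was also 0 with DESeq2, gates on both genes or the receptor alone, matching on UMIs, and either spiny class alone, and the Tshz1 count was 1 with the receptor gate. At least 2 mCherry UMIs left too few libraries and could not be fitted.

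Calls over all genes between the spiny classes numbered 232, but 59 with DESeq2, 142 with no filter, 21 with no replicate block and 90 to 129 without a library. Over Slc17a7 they numbered 1279, but 829 with DESeq2 and 366 to 2381 without a library, over Sst 793, but 455 with DESeq2 and 0 without any library, for mCherry 14, but 0 with DESeq2, 0 to 42 without a library, 30 at 1000 UMIs or more, 2 with both genes, 7 with the receptor alone and 1 and 0 in the Drd1/Tac1 and Adora2a/Penk class alone, and for Tshz1 2, but 21 with the receptor alone. DESeq2 moved the median of all genes over Sst from 0.091 to 0.26.

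Changes of direction were all among uncalled values. Over Sst, Isl1 was -0.45 without library 2 (up to 1.70 without library 1). For Tshz1, Foxp1 was 0.032 without library 1 (down to -0.13 without library 3), 0.0093 with the peptide gate and 0.095 when matched on UMIs, Isl1 0.0046 with no replicate block and 0.27 without library 2 (down to -0.31 without library 3), and Ebf1 0.20 with no block, 0.47 without library 2 (down to -0.93 without library 3), 0.25 with both genes and 0.16 with the peptide gate. Bcl11b was 0.10 and Six3 0.15 at 2 or more Tshz1 UMIs, and Meis2 -0.021 at 1000 UMIs or more and -0.0090 with the peptide gate. For mCherry, Foxp1 was -0.032 with no filter, -0.058 with no block, -0.059 in the Drd1/Tac1 class alone, -0.029 without library 3 (up to 0.061 without library 2) and -0.0023 with the receptor gate, Bcl11b 0.0013 without library 1, 0.040 without library 2 (down to -0.074 without library 3), 0.030 when matched and 0.0026 in the Adora2a/Penk class alone, Meis2 0.044 when matched and Six3 0.16 without library 3 (down to -0.55 without library 2) and 0.31 in the Drd1/Tac1 class alone.

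Depth limits the rarer genes: Isl1, Sp9 and Zfp503 rest on few UMIs outside the spiny classes, and the Sst class on 47 cells. In every comparison the low-count filter keeps a gene that is high in a single arm.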

Other observations

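Neurons that met no gate (264, 702 and 223 cells) held Foxp1 at 949, 367 and 488 CPM in libraries 1 to 3, Meis2 at 874, 522 and 993 CPM and Bcl11b at 730.0, 519 and 523 CPM, all above the Slc17a7 sums of the same library. Isl1 (35.0, 48.7 and 27.5 CPM) and Sp9 (17.5, 39.2 and 62.8 CPM) were both read there.

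Cells counted neither as neurons nor as non-neuronal cells (207, 341 and 90 cells) held Ebf1 at 143, 211 and 316 CPM, above every gated class in each library.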
